A study of Mus musculus with 6 samples.

Results

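The splicing factor genes described here are the RefSeq protein-coding genes whose symbols start with Srsf, Snrp, Sf3a, Sf3b, U2af, Prpf or Hnrnp. The rule found 69 of the 21883 protein-coding genes that RefSeq places on chromosomes 1 to 19, X and Y of the GRCm38 build. They comprise 11 SR protein genes, 12 core snRNP protein genes, 12 SF3 and U2AF genes, 13 Prpf genes and 21 Hnrnp genes. The study mapped H3K27ac, the acetylated form of lysine 27 of histone H3 that is found at promoters and enhancers in use, by CUT&RUN, which cuts and sequences the DNA next to an antibody bound to the mark. The study asked which acetylated sites are affected by Ppp2ca, which encodes the alpha form of the catalytic subunit of protein phosphatase 2A (PP2A). The 2 groups are 3 libraries of bone marrow hematopoietic stem cells from Ppp2ca-deficient mice, called KO here, and 3 libraries of the same cell type from mice wild type for Ppp2ca, called WT. The series text speaks of 3 mice per genotype, so a library stands for 1 mouse here, but animals are not numbered, and p-values measure only the spread between these libraries. The sources used here do not give which part of Ppp2ca was deleted, the Cre or promoter used, the strain, the age of the mice or how stem cells were isolated.

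Introns are removed by the spliceosome, which is built from small nuclear RNAs with their Sm ring proteins (Snrp genes) and further factors. These include the branch site complex SF3, its partner U2AF and the factors named Prpf, only some of which are associated with U4, U5 and U6. SR proteins bind exons and generally promote the use of nearby splice sites, while hnRNP proteins coat nascent transcripts and often counteract them. SR proteins cycle between phosphorylated and dephosphorylated forms during splicing, and phosphatases of the PP1 and PP2A families take part in that cycle. In blood, mutations of the human orthologs of Srsf2, Sf3b1 and U2af1 are recurrent in myelodysplastic syndromes, which arise in stem cells.

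The KO lists held 50453, 34016 and 35629 peaks in replicates 1 to 3, against 22066, 29945 and 21917 in WT replicates 1 to 3. No read totals are in the lists. The background recovered from the peaks, a proxy for depth, was 0.738, 0.465 and 0.827 fragments per 200 bp in KO and 0.499, 0.584 and 0.498 in WT, with overlapping ranges. KO peaks were wider, with a median of 306 to 391 bp against 221 to 236 bp in WT, and 43.9% to 66.6% of KO peaks against 15.7% to 16.7% of WT peaks had a q-value of at most 0.05. These properties move with the genotype, and their part in the results was not tested beyond the q-value and list-length settings given below. Of 14 stem cell markers, 3 to 5 had a peak at a gene end per KO library and 3 to 5 per WT library. Runx1 and Tal1 were marked in all 6 libraries, and Cd34, Gata2, Hlf, Hoxa9, Mecom and Slamf1 in none. Erythroid markers were marked at 3 to 4 of 6 genes in KO and at 2 of 6 in each WT library, myeloid markers at 3 to 6 of 7 in KO and 3 to 4 of 7 in WT, and megakaryocyte markers at 1 to 2 of 4 in KO and 1 to 3 of 4 in WT. B cell markers were marked at 0 to 3 of 6 genes in KO and 0 to 2 of 6 in WT, T and NK cell markers at 1 to 2 of 6 in KO and 1 of 6 in WT, and stromal and endothelial markers at 1 of 5 in every library. With q-values of at most 0.05 the markers also moved with the genotype, at 2 to 4 erythroid genes in KO and 0 in WT, 1 to 4 myeloid genes in KO and 0 in WT, and 3 stem cell genes in each KO and 1 in each WT library. Megakaryocyte markers were then marked at 0 to 2 genes in KO and 0 to 1 in WT, B cell markers at 0 to 1 in KO and 0 in WT, T and NK cell markers at 1 in KO and 0 to 1 in WT, and stromal and endothelial markers at 1 in KO and 0 to 1 in WT. The part of cell composition in the results was not tested. Ppp2ca carried peaks over 1371, 1338 and 1381 bp of its end windows in KO and 1076, 729 and 1077 bp in WT, which does not check the deletion, since the deleted part is not given.

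The promoters of 7 genes are printed because the results turn on them. They are the 3 myelodysplasia genes, Snrpb2 with peaks in every KO and no WT library, Srsf12 with no peak at its ends in any library, Hnrnph1 with peaks in all 6 libraries only at starts inside the gene, and Hnrnpa1 with its promoter covered throughout in all 6 libraries. Each is the 250 bases before the first start listed by RefSeq (GRCm38.p6), read 5′ to 3′ on the gene's strand. They lie at chr11:116853095-116853344 on the minus strand (Srsf2), chr1:55027479-55027728 minus (Sf3b1), chr17:31658765-31659014 minus (U2af1), chr2:143062819-143063068 plus (Snrpb2), chr4:33209022-33209271 plus (Srsf12), chr11:50376740-50376989 plus (Hnrnph1) and chr15:103240147-103240396 plus (Hnrnpa1). Capitals mark copies of the motifs searched on both strands, and neighbouring copies of the same motif may overlap. The motifs were the GC box GGGCGG, the CCAAT box CCAAT, the ETS motif CCGGAAGT, the TATA box TATAAA, the cyclic AMP response element TGACGTCA and the E-box CACGTG.
Srsf2: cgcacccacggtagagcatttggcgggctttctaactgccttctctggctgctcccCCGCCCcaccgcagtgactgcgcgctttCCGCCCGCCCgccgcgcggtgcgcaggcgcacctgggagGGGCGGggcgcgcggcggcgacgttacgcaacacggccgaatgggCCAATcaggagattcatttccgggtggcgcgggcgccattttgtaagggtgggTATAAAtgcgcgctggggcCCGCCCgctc
Sf3b1: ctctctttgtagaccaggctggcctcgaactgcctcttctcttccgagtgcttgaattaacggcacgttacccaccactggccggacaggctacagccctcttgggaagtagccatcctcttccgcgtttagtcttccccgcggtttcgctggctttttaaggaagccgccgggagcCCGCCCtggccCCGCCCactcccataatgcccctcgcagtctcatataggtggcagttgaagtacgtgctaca
U2af1: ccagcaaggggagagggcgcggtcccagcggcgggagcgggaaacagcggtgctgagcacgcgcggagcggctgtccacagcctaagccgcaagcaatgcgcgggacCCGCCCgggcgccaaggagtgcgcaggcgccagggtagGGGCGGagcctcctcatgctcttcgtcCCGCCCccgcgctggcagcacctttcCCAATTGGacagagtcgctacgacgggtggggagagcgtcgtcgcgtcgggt
Snrpb2: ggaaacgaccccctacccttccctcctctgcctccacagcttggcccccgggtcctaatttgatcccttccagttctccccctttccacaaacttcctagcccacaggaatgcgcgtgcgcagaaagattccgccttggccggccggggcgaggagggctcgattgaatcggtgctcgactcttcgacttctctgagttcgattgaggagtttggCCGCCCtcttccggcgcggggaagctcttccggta
Srsf12: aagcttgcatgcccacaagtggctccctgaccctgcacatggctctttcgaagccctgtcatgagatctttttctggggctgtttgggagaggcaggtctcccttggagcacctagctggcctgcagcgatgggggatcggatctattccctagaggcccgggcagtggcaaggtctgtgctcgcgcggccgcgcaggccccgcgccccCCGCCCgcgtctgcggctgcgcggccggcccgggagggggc
Hnrnph1: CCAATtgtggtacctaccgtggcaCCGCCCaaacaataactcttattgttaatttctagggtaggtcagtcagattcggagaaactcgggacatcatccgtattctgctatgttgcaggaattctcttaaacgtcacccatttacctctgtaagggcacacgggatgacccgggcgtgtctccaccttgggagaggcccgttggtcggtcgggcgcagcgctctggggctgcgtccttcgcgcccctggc
Hnrnpa1: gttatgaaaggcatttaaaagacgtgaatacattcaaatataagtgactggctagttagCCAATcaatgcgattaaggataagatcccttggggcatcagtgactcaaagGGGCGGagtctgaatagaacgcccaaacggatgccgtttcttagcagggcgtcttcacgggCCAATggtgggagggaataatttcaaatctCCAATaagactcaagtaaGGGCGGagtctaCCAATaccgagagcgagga
The Srsf2 promoter holds 5 GC boxes, 1 CCAAT box and 1 TATA box, and 69.6% of its bases are G or C. The U2af1 promoter holds 3 GC boxes and 2 overlapping CCAAT boxes, the Sf3b1 promoter 2 GC boxes and the Snrpb2 promoter 1. The Srsf12 promoter, where no peak was called, also holds 1 GC box and has 68% G or C.

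Most splicing factor genes carried H3K27ac in both genotypes, and more of them, over longer stretches, in KO. Genes count as marked if at least 1 bp of a peak falls within 1000 bp of the first or last position of the gene. In KO replicates 1 to 3, 64, 62 and 64 of the 69 genes were marked, against 55, 58 and 54 in WT replicates 1 to 3. The groups did not overlap, with means of 63.3 ± 1.15 genes in KO and 55.7 ± 2.08 in WT (SD, n = 3 each). The 2-sided exact permutation p was 0.1, the smallest that 3 against 3 libraries allow, so no comparison of this kind could reach 0.05. Over all 21883 genes, 9699, 8668 and 9221 were marked in KO and 5759, 6537 and 5781 in WT, so the whole gene set moved the same way. Cutting every list to its 21917 best peaks, the length of the shortest, left 64, 62 and 64 members in KO and 55, 55 and 54 in WT.

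The shared marking stood well above the level of all genes. All 6 libraries marked 46 of the 69 members (66.7%), against 17.0% of all genes, and among genes marked in at least 1 library the background was 33.5%. All 3 KO libraries marked 62 members (background 36.2%) and all 3 WT libraries 46 (background 17.2%). At 4 members, Srsf12, Snrpn, Hnrnph1 and Hnrnpa1l2-ps2, no library had a peak at an end (background 49.3%). Snrpb2 was the 1 member with a peak in all 3 KO and no WT library (background 4.10%, and 8.10% among marked genes; the count is 2 without WT replicate 1 and 3 without WT replicate 2 or 3), and no member had the reverse pattern (background 0.00914%).

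Covered length separated the genotypes more often than presence. Covered length is the number of base pairs of a gene's end windows that lie under peaks. It averaged 1168, 954 and 1140 bp per member in KO replicates 1 to 3 and 599, 597 and 536 bp in WT replicates 1 to 3, with members without a peak counted as 0. The means were 1087 ± 117 bp in KO and 577 ± 36.1 bp in WT (SD, n = 3 each; exact permutation p = 0.1), a ratio of 1.88. The ratio for all genes was 2.57, from 363 ± 54.6 bp in KO and 142 ± 13.1 bp in WT, so the relative gap was not wider at the splicing factor genes. Every KO library covered more than any WT library at 38 of the 69 members (55.1%), against 25.6% of all genes. Among genes marked in at least 1 library the shares lie closer, at 58.5% of members against 50.6%. None showed the reverse (background 0.0183%). With lists of equal length the count was again 38 (background 21.4%, and 46.4% among marked genes). Mean covered length was higher in KO for 64 members and lower for 1, Prpf40b. The matching share over all genes is not given here, and the mean of all genes was also higher in KO. The median difference, KO minus WT, was 503 bp among marked members and 437 bp among all marked genes.

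**Figure D1:**
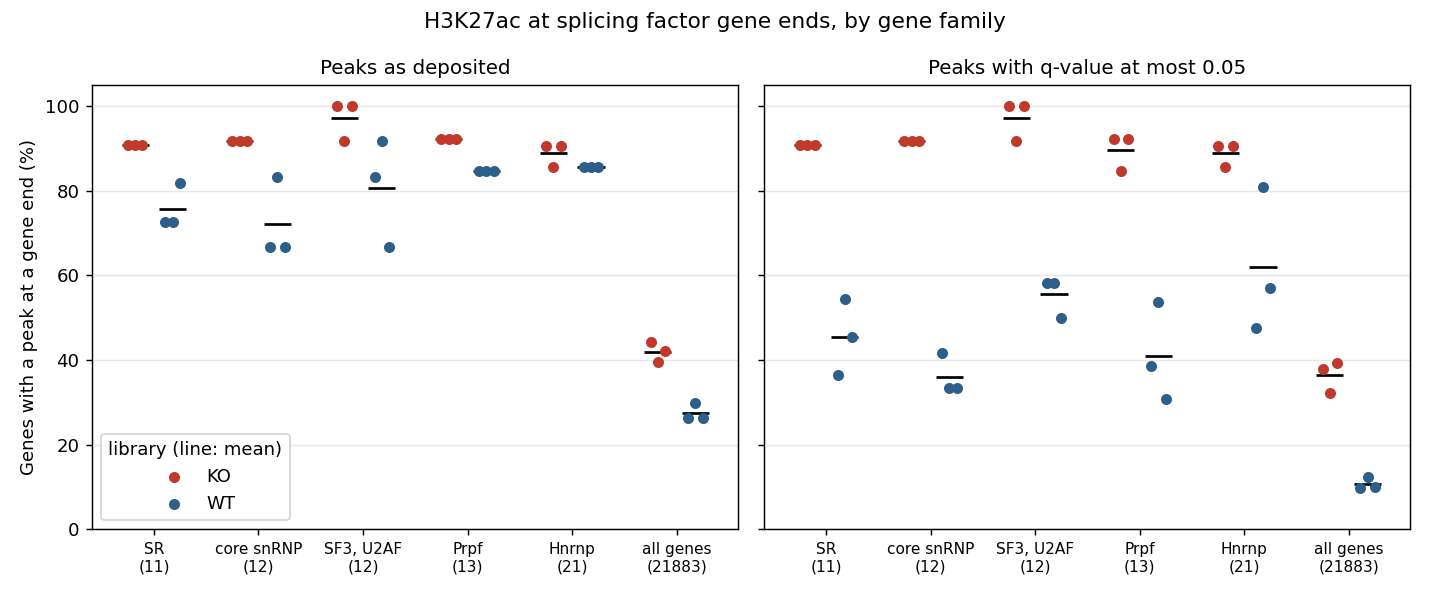
Share of genes with an H3K27ac peak at a gene end (vertical axis, %) in each library, by family with the number of genes in brackets, for all deposited peaks (left) and those whose q-value is 0.05 or lower (right). Points are libraries and lines are group means; in the right panel every KO library lies above every WT library within each family, from a mean of 97.2% for SF3 and U2AF genes in KO to 36.1% for core snRNP genes in WT.

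The gap was wider when peaks with high q-values were left out. Keeping those whose q-value is 0.05 or lower left 64, 61 and 64 marked members in KO against 31, 41 and 31 in WT. Over all genes the same threshold left 8294, 7045 and 8597 in KO and 2149, 2708 and 2192 in WT. The ratio of mean KO to mean WT counts was 1.83 for members and 3.4 for all genes, against 1.14 and 1.53 with all deposited peaks. The members' ratio had a ceiling, since KO libraries marked nearly every member, so it cannot be compared with that of all genes. In percent of genes marked, KO exceeded WT by 41.5 points for members and 25.7 points for all genes. With all deposited peaks these gaps were 11.1 and 14.5 points. Under that threshold 14 members (20.3%) had a peak in all 3 KO and no WT library, against 12.4% of all genes. Among genes marked in at least 1 library the order turned, with 21.9% of members against 29.0% of all such genes. The 14 members were Srsf7, Srsf9, Srsf10 and Srsf11, Snrpa1, Snrpb2, Snrpd2 and Snrpf, Sf3a1, Sf3b2 and Sf3b5, and Prpf18, Prpf19 and Prpf31, with no Hnrnp gene among them. All 6 libraries then marked 19 members (background 4.37%), and 45 were more covered in every KO than in any WT library (background 25.1%). Among marked genes these shares were 29.7% of members against 10.2% and 70.3% of members against 58.7%.

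Each KO library marked 10 of the 11 SR protein genes, and the WT libraries 8, 8 and 9. Mean covered length was 1105 ± 108 bp in KO and 488 ± 35.9 bp in WT (SD, n = 3 each; exact permutation p = 0.1), and 7 of 11 (63.6%) were more covered in every KO library, against 25.6% of all genes. Among marked genes the share was 70% for SR genes and 50.6% for all genes. With listed starts counted as well as ends, 9 of 11 SR genes (81.8%) were more covered in every KO library, against 28.1% of all genes. Among marked genes these shares were 90% and 52.9%. Srsf2, which binds exonic enhancers, spans chr11:116849897-116853675 on the minus strand, and its windows overlap those of Mettl23 and Mfsd11. Its peaks covered 847, 701 and 1218 bp in KO and 282, 752 and 421 bp in WT, and these ranges overlap because WT replicate 2 lies above KO replicate 2. The fold over background at its best summit, as the authors' caller gave it, was 7.27, 4.78 and 4.51 in KO and 2.36, 4.24 and 4.70 in WT. The recovered summit pileup was 48, 19 and 31 fragments in KO against 5, 9 and 10 in WT. The genotypes thus overlapped in fold and in covered length of the end windows, and not in pileup.

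Within the end windows, the other SR genes ranged from complete separation to none. Srsf3, a small shuttling SR protein that acts in mRNA export, had 1918, 1699 and 1896 bp covered in KO and 590, 809 and 1250 bp in WT, without overlap. Srsf4 had 1206, 1035 and 1456 bp in KO and 690, 510 and 343 bp in WT. Srsf5 had 1217, 1422 and 1423 bp in KO against 1031, 887 and 1090 bp in WT, and was also separated. Its fold values overlapped, at 6.48, 7.04 and 8.72 in KO and 6.37, 6.43 and 7.56 in WT, so the genotypes were separated in covered length and not in fold. Srsf6 overlapped between the genotypes, with 1553, 1380 and 1426 bp in KO and 1014, 1498 and 1347 bp in WT. Srsf7, an export adapter whose windows overlap those of Gemin6, had 1608, 908 and 1066 bp in KO, against 0, 0 and 242 bp in WT. Srsf1, the founding SR protein, had the lowest mean coverage of the 10 marked SR genes, at 390, 287 and 482 bp in KO and 431, 248 and 0 bp in WT, and its groups overlapped. The end window cut the Srsf1 peaks, whose widest were 2088, 1508 and 1591 bp in KO and 722 and 1192 bp in WT replicates 1 and 2. Its listed start was marked in all 6 libraries, including WT replicate 3, where the peak lies further inside the gene.

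Of the 12 core snRNP protein genes, 11 were marked in each KO library and 8, 10 and 8 in WT, with 922 ± 94.8 bp covered in KO and 443 ± 26.3 bp in WT (SD, n = 3 each; exact permutation p = 0.1). The 8 genes counted with the Sm ring, Snrpn among them, were marked at 7 members per KO library and 6, 7 and 5 in WT. The 4 genes specific to the U1 or U2 particle were all marked in each KO library and at 2, 3 and 3 in WT. Snrpb2 encodes U2B″, a protein of the U2 particle that recognises the branch site, and spans chr2:143063069-143072052 on the plus strand. Peaks covered 746, 581 and 773 bp of its windows in KO and none in WT. Its KO peaks rested on 15, 9 and 13 fragments at the summit with folds of 7.48, 6.25 and 6.31, while the median summit pileup over a whole WT list was 5 fragments.

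Snrpa1, the partner of Snrpb2 in the U2 particle, had 1178, 629 and 1311 bp in KO and 0, 200 and 1120 bp in WT, and its groups overlapped through WT replicate 3. The U1 proteins differed between genes. Snrpa was separated, with 1426, 1249 and 1330 bp in KO against 814, 724 and 720 bp in WT, and Snrpc likewise, with 1211, 1235 and 1429 bp in KO against 1020, 200 and 291 bp in WT. In the Sm ring, Snrpb had 1327, 1039 and 1129 bp in KO and 876, 448 and 646 bp in WT. Snrpg, which shares a window with Fam136a, had 1221, 964 and 1276 bp in KO and 575, 744 and 1104 bp in WT, so that its groups overlapped. Snrpn, an imprinted relative of Snrpb known for its high level in brain, had no peak at its ends or listed starts in any library.

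The KO libraries marked 12, 11 and 12 of the 12 SF3 and U2AF genes and the WT libraries 10, 11 and 8 (exact permutation p = 0.2), and covered length was 1213 ± 180 bp in KO and 593 ± 127 bp in WT (SD, n = 3 each; exact permutation p = 0.1). Sf3b1, which holds the branch site in the U2 particle, spans chr1:54985169-55027501 on the minus strand. Its windows were covered over 1162, 1050 and 1226 bp in KO, against 724, 889 and 760 bp in WT, without overlap. The fold values overlapped, at 5.51, 5.39 and 5.02 in KO and 3.75, 5.33 and 5.03 in WT, and the summit pileup was 36, 24 and 43 fragments in KO and 11, 17 and 15 in WT. Of its promoter printed above, peaks covered 223, 250 and 248 bp in KO and 128, 148 and 66 bp in WT. U2af1, which recognises the AG at the end of an intron, spans chr17:31647081-31659148 on the minus strand. It had 1004, 876 and 1134 bp covered in KO and 538, 654 and 461 bp in WT, with folds of 7.17, 5.65 and 7.69 in KO and 4.84, 4.0 and 4.29 in WT. Its printed promoter was covered whole in each KO library, against 0, 37 and 0 bp in WT, and the WT peaks lay mostly downstream of the start.

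Of the 3 myelodysplasia genes, Sf3b1 and U2af1 were thus separated in covered length of the end windows. Srsf2 was not, but its window cut a KO peak. U2af2, which binds the polypyrimidine tract, had 1953, 1597 and 1469 bp in KO and 1347, 297 and 496 bp in WT. Sf3b2 was separated too when both ends were counted, with 2228, 1403 and 1780 bp in KO and 1142, 200 and 788 bp in WT. Part of this length lay at the end away from the start, in each KO library and in WT replicates 1 and 3. At the start end alone KO replicate 2 was covered over fewer base pairs than WT replicate 1, so the genotypes overlapped there. Sf3b3 overlapped slightly, with 1656, 1195 and 1679 bp in KO and 1373, 1133 and 1206 bp in WT. Among the SF3a subunits, which join SF3b to the U2 particle, Sf3a2 had 1369, 1216 and 1446 bp in KO and 956, 1031 and 1196 bp in WT. Sf3a1 had 837, 581 and 454 bp in KO and 0, 597 and 0 bp in WT. Sf3a3 was the least marked of the 3, with 935, 0 and 518 bp in KO and 200, 0 and 0 bp in WT. KO replicate 2 therefore missed a gene that the other KO libraries marked.

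Each KO library marked 12 of the 13 Prpf genes and each WT library 11, with 1088 ± 103 bp covered in KO and 573 ± 55.9 bp in WT (SD, n = 3 each; exact permutation p = 0.1). Prpf8, the scaffold of the catalytic core, had the highest fold of the family in each KO library, with 8.76, 8.80 and 8.80 in KO and 6.37, 4.95 and 5.11 in WT. Its covered length overlapped, with 1585, 1154 and 1639 bp in KO and 1016, 619 and 1182 bp in WT. Prpf4, of the U4/U6 particle, was the most covered of its family, with 1902, 1774 and 1812 bp in KO against 1363, 1414 and 1512 bp in WT. Prpf38a and Prpf38b, relatives of a yeast factor needed before the catalytic steps, were both separated. Prpf38a had 1308, 1346 and 1627 bp in KO and 877, 906 and 818 bp in WT, and Prpf38b 1557, 1334 and 1377 bp in KO and 719, 1175 and 1031 bp in WT. Prpf18, a factor of the final splicing step, had 881, 976 and 806 bp in KO and 413, 0 and 0 bp in WT. Prpf40b was the 1 member marked in WT alone, over 246 bp in WT replicate 2, at 4 fragments, and in no KO library.

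Hnrnp genes differed least in presence, with 19, 18 and 19 of 21 marked in KO and 18 in each WT library (exact permutation p = 0.4). All 6 libraries marked 16 of them (76.2%, background 17.0%). Covered length was 1101 ± 117 bp in KO and 695 ± 86.2 bp in WT (SD, n = 3 each; exact permutation p = 0.1), and 8 of 21 (38.1%) were more covered in every KO library, against 25.6% of all genes. Among marked genes the share was 42.1% for Hnrnp genes, below the 50.6% of all marked genes. With listed starts counted as well as ends, the shares were 55% and 52.9%, so the lower Hnrnp share held for gene ends only. Hnrnpa1, an abundant repressor of splice sites, had 1411, 1236 and 1724 bp in KO and 1121, 1334 and 1225 bp in WT, with overlap. Its printed promoter was covered over all 250 bp in each of the 6 libraries. Hnrnpa0 had 2001, 1462 and 1869 bp in KO and 1942, 1463 and 1274 bp in WT, and Hnrnpa3 2530, 1729 and 2001 bp in KO and 1137, 1768 and 1583 bp in WT, so that neither was separated. Hnrnpul2 was separated, with 1790, 1430 and 1568 bp in KO against 895, 1205 and 1158 bp in WT. Hnrnpll, a regulator of Ptprc (CD45) splicing in T cells, had 835, 741 and 1493 bp in KO and 383, 317 and 0 bp in WT.

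The gene-end rule misses starts that lie inside a RefSeq gene. Hnrnph1 (chr11:50375257-50386528, plus strand) had no peak within 1000 bp of either end, yet a peak at its listed starts in all 6 libraries. That peak was 1769, 1779 and 1779 bp wide in KO, with folds of 4.76, 4.47 and 6.28, and the widest was 1073, 1108 and 508 bp in WT, with folds of 4.44, 4.08 and 6.30. Hnrnpf, a close relative, had 714, 0 and 611 bp covered at its ends in KO and 340, 0 and 215 bp in WT, and was marked at internal listed starts in all 6 libraries. Counting listed starts as well as ends, all 6 libraries marked 49 of the 69 members, against 19.0% of all genes, and the numbers per library were 65, 64 and 65 in KO and 56, 60 and 56 in WT. Hnrnpa1l2-ps2, which RefSeq lists as protein-coding although its symbol marks it as a pseudogene, had no peak at its ends or listed start.

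**Figure D2:**
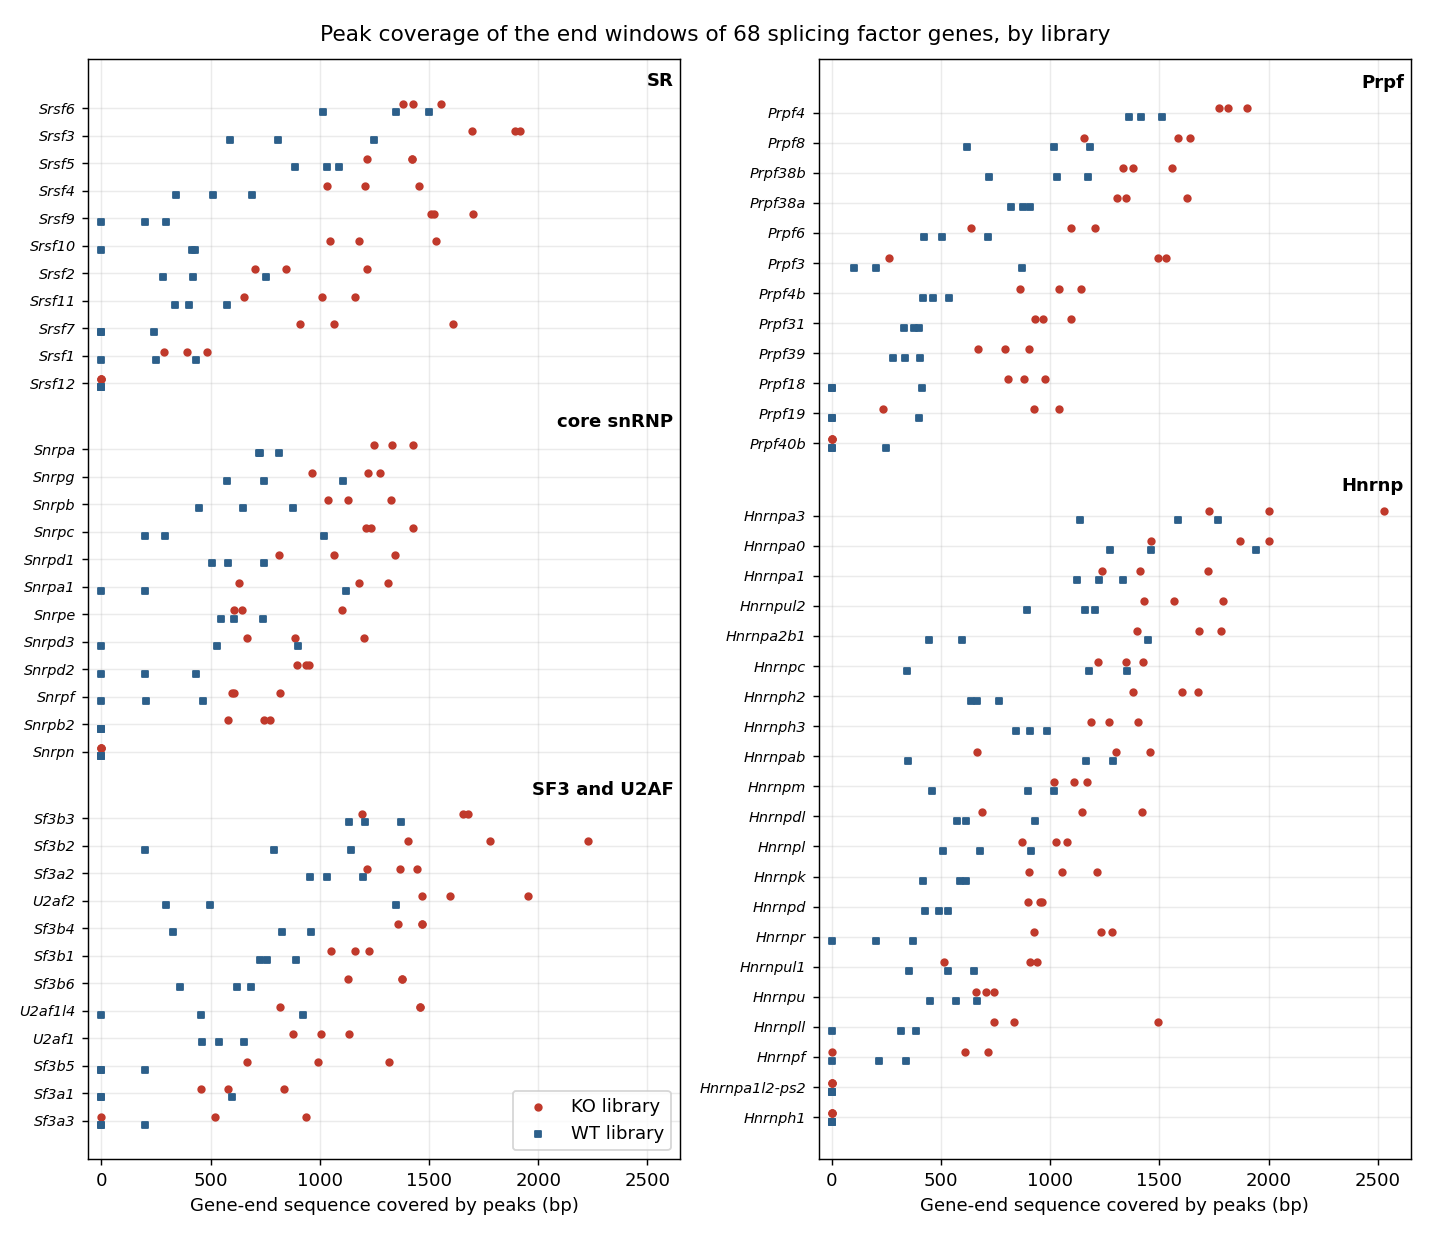
Base pairs of the end windows covered by peaks (horizontal axis) for 68 of the 69 genes, grouped by family and ordered by mean coverage within it. Circles are KO libraries and squares WT libraries; at 37 of the genes drawn every circle lies right of every square, and at 4 all 6 symbols lie at 0.

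The families were compared as differences within a library, so that the length of a list enters both sides. This does not cancel list length where nearly all genes of a family are marked, as in KO. The percent of SR genes marked minus that of Hnrnp genes was 2.02 ± 2.75 points in KO and -9.96 ± 5.25 in WT (SD, n = 3 each). This gap of 12 points had an exact permutation p of 0.1, and 0.15 after Benjamini-Hochberg adjustment over 3 comparisons. For core snRNP minus Hnrnp genes it was 2.78 ± 2.75 points in KO and -13.5 ± 9.62 in WT, a gap of 16.3 points (exact permutation p = 0.1, adjusted 0.15). SR minus core snRNP genes gave -0.758 points in each KO library and 3.54 ± 13.1 in WT (exact permutation p = 0.7, adjusted 0.7). In WT the Hnrnp share thus lay above those of SR and core snRNP genes on average, while in KO the differences were 5.95 points or less. The KO libraries marked 85.7% to 91.7% of each of these families, which left little room for differences, so the gaps mainly reflect the WT shares. With −log10 q-values of at least 5 the gaps of both families to Hnrnp genes turned negative, at -4.47 and -1.19 points, and without WT replicate 3 that of SR to core snRNP genes turned positive, at 1.52 points.

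The best peaks sat at the start end of genes. Of 308 best peaks of members with a known strand, 307 (99.7%) lay nearer the start end of the gene than the other end. The share over all genes is not given here. Weaker peaks at the other end also enter covered length, as at Prpf8 in each KO library. Over the 60 members with a listed start, the start itself was covered in 93.3%, 78.3% and 90% of genes in KO and 56.7%, 56.7% and 46.7% in WT. The means were 87.2% ± 7.88 in KO and 53.3% ± 5.77 in WT (SD, n = 3 each; exact permutation p = 0.1), against 31.2% ± 3.65 in KO and 13.3% ± 1.12 in WT over 17491 genes. At 500 bp downstream 70.6% ± 5.09 of members were covered in KO and 36.7% ± 3.33 in WT, and at 500 bp upstream 52.2% ± 5.85 in KO and 30% ± 2.89 in WT. At 1000 bp upstream the groups overlapped, with 16.1% ± 4.19 in KO and 12.8% ± 1.92 in WT (exact permutation p = 0.4). At 1000 bp downstream they did not, with 23.3% ± 3.33 in KO and 7.78% ± 3.85 in WT. Many of these starts are shared, as 38 of the 69 members (55.1%) have a window that overlaps that of another protein-coding gene, against 32.2% of all genes, and a peak there cannot be assigned to 1 of the 2 genes.

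**Figure D3:**
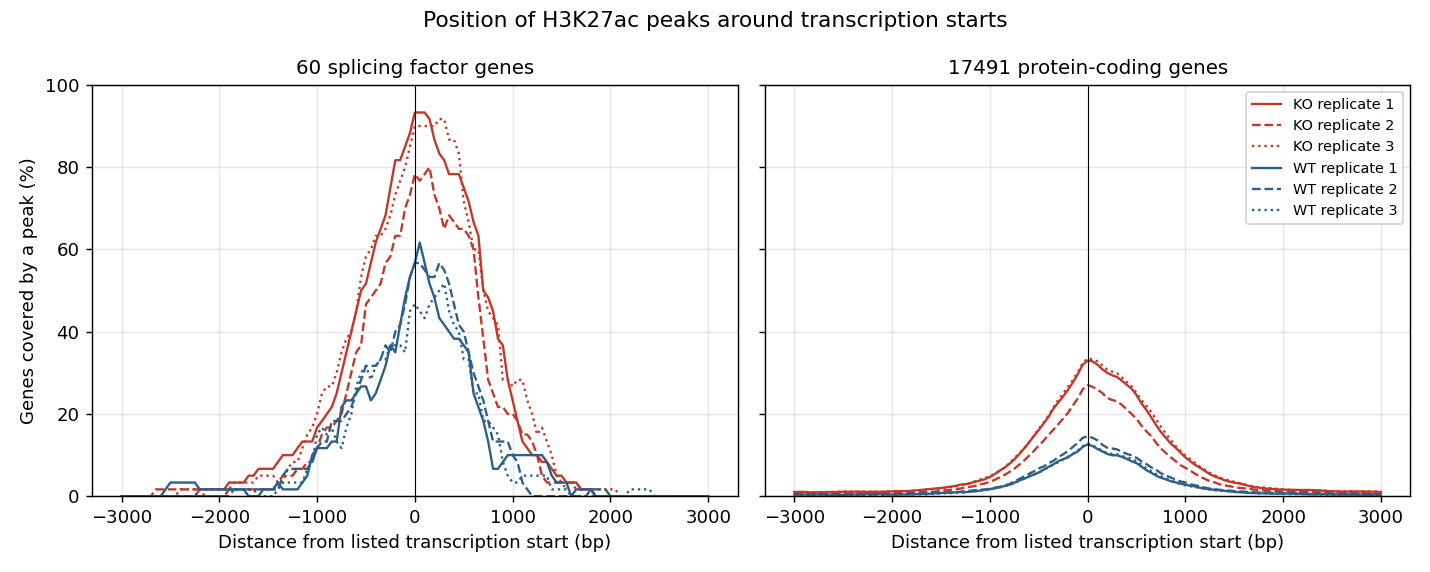
Percent of genes covered by a peak (vertical axis) by distance from the listed transcription start (horizontal axis, bp, negative upstream), for 60 splicing factor genes (left) and 17491 protein-coding genes (right). Each line is 1 library; the 3 KO lines reach 78.3% to 93.3% of the splicing factor genes at the start and the 3 WT lines 46.7% to 56.7%.

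**Figure D4:**
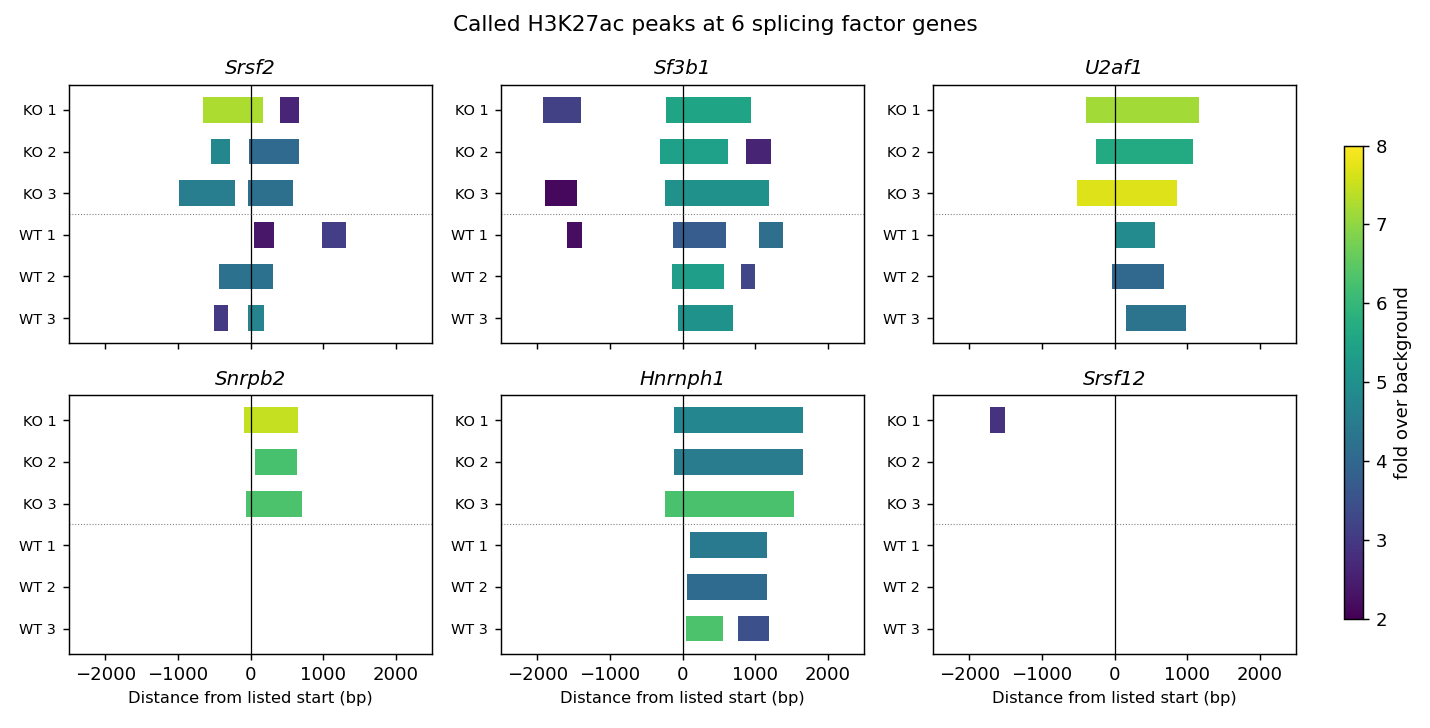
Called peaks at 6 genes by distance from the listed start (horizontal axis, bp, negative upstream), 1 track per library with KO above WT, coloured by the authors' fold over background. Snrpb2 has peaks in the 3 KO tracks and none in WT, Hnrnph1 has peaks in all 6, and Srsf12 has none within 1000 bp of its start.

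The peaks at these genes also ranked high within their lists. In each library the best peak of a marked member was taken, and its rank was expressed as a percent of the list's length, the best peak being lowest. The median was 3.72%, 5.86% and 5.93% in KO and 12.9%, 7.75% and 14.5% in WT, against 12.7%, 17.8% and 16.3% in KO and 28.6%, 19.9% and 28.8% in WT for all marked genes. Median folds of the members' best peaks were 5.21, 5.10 and 5.18 in KO and 4.13, 4.43 and 4.11 in WT. Median summit pileups were 25, 17 and 29.5 fragments in KO and 8, 9 and 8 in WT, and median widths 1271, 970 and 1377 bp in KO and 579, 713.5 and 491.5 bp in WT. Ranks from lists of different lengths show no change, so these values only describe each list.

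The listed promoters were rich in CpG. The 60 promoters of 250 bases had a median of 59.2% G or C and 19 CpG dinucleotides, against 55.2% and 10 for 17491 genes. The ratio of observed to expected CpG exceeded 0.6 in 55 of 60 (91.7%), against 45.2% of all genes, and in all 11 SR promoters. A GC box was found in 39 of 60 (65%) and 42.7% of all promoters, and in 10 of 11 SR promoters. A CCAAT box was found in 29 of 60 (48.3%) and 36.3% of all, with 13 of 19 Hnrnp promoters and 3 of 11 SR promoters. The ETS motif occurred in 7 of 60 (11.7%) and 3.84% of all promoters, the TATA box in 6 (10%) and 12.4%, the cyclic AMP response element in 2 (3.33%) and 2.01%, and the E-box in 5 (8.33%) and 6.64%. These shares were not tested.

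Genes that work with these factors were read from lists of spliceosome components outside the symbol rule. Of 55 such genes, 54, 55 and 54 were marked in KO and 43, 47 and 37 in WT (exact permutation p = 0.1), and 43 were more covered in every KO library, against the background of 25.6%, or 50.6% among marked genes. A total of 2 of the 55 (3.64%) had peaks in all 3 KO and no WT library, no more than the 4.10% of all genes. They were Lsm5, of the Lsm ring on U6, and Ddx41, a helicase whose human ortholog is mutated in myeloid neoplasms. Lsm5 had 694, 558 and 838 bp covered in KO and Ddx41 512, 479 and 631 bp. Zrsr2, a relative of U2af1 for minor introns, had 951, 923 and 1066 bp in KO and 613, 500 and 530 bp in WT. The SMN list held 12 genes that act in the assembly of Sm proteins on snRNA, not all of them subunits of the SMN complex. Of these, 11 were marked in each KO library and 5, 8 and 7 in WT (exact permutation p = 0.1). Smn1 itself had no peak at its ends in any library, although all 12 genes were marked at listed starts in each KO library. Gemin5, the snRNA-binding subunit of the SMN complex, had 711, 377 and 400 bp in KO and none in WT. Prmt5, the methyltransferase of Sm proteins, had 951, 431 and 992 bp in KO and 179, 400 and 367 bp in WT. With q-values of at most 0.05, 11, 9 and 11 genes of the SMN list were marked in KO and 1 (8.33%) in each WT library. Over all genes that setting left 37.9%, 32.2% and 39.3% marked in KO and 9.82%, 12.4% and 10% in WT, so the SMN share in WT lay near the level of all genes.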

How the data were processed

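H3K27ac CUT&RUN peaks of 3 KO and 3 WT libraries were analysed. The submitters' processing notes name the GRCm38 (mm10) build and, among other tools, the trimmer Trimmomatic, the aligner BWA and the peak caller MACS2; the sources used here give no version, threshold or control library. The authors deposited 1 narrowPeak list per library and pooled no replicates in it. In the deposited lists a score, a fold (ratio) over background, a −log10 p-value and a −log10 q-value belong to each peak. These are the authors' values, depend on depth, and were used inside each list alone, for description, ranking and filtering. No list held a −log10 p-value under 2.005.

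Gene positions came from RefSeq (GRCm38.p6), and listed starts from its promoter table, which held 60 of the 69 members. 1 member is counted throughout but not reported by name. Members and lists were chosen with earlier results of these data known. Lists of other spliceosome genes, SR protein kinases and genes of Sm protein assembly (the SMN list) matched by symbol in full (55, 9 and 12 genes). Libraries were the replicates. Group means were compared with a 2-sided exact permutation test over the 20 assignments. Counts of members were set beside all genes with no test. Genes named were Srsf2, Sf3b1, U2af1, members marked in 1 genotype alone, the 4 most covered of each family, the 2 marked in the fewest libraries and those with no peak; other names were chosen after their values were seen.

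Fragments at a summit were recovered by solving fold = (pileup + 1)/(background + 1) with the Poisson p-value. Whole pileups came out, at a tolerance of 0.002, for 100.00% of peaks with −log10 p-value under 15 in each library, and pileups of stronger peaks follow the same formula. No 2 lists shared more than 7 identical intervals. The procedure was tested on simulated data. Alternatives were q-values of at most 0.05, −log10 q-values of at least 5, equal list lengths, an overlap of 100 bp, summits only, windows of 500 and 2000 bp, starts only, leaving out each library and a replicate block; counting ends or listed starts was added after the data had been seen. Python 3.11.15, numpy 2.4.6, pandas 2.3.3 and scipy 1.17.1 were used.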

Additional observations from a re-analysis of the deposited data

How the results depend on the processing

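Of 13 results with a test, 193 of 196 alternative values kept the direction, and none could reach 0.05. With −log10 q-values of at least 5 the KO minus WT gap of SR minus Hnrnp genes was -4.47 points (exact permutation p = 0.6) and that of core snRNP minus Hnrnp genes -1.19 points (exact permutation p = 1), opposite in sign to the values given, so both family differences depend on the threshold. Leaving out each library in turn gave -11.4 to 1.52 points for SR minus core snRNP genes, positive without WT replicate 3 alone. The count of members with peaks in KO alone was 14 with q-values of at most 0.05, 23 with −log10 q-values of at least 5, and 1 to 3 when 1 library was left out (2 without WT replicate 1, 3 without WT replicate 2 and 3 without WT replicate 3). The count marked in all 6 libraries was 19 with q-values of at most 0.05 and 2 with −log10 q-values of at least 5. The cause of these shifts was not tested. The number of members more covered in every KO library was 29 to 54 over all settings, highest without KO replicate 2. With q-values of at most 0.05 the share with peaks in KO alone was 21.9% of marked members and 29.0% of all marked genes. No share over all genes is given for −log10 q-values of at least 5 or with 1 library left out. The counts under those settings therefore show nothing particular to the members.

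Same-numbered libraries did not deviate together (correlations of -0.00156, -0.0168 and -0.0102 over 11084 genes). Differently numbered libraries gave -0.0184 to 0.0274. This check gave no ground for using the numbers as pairs, and it cannot show that the design had no pairing. With the replicate block, the difference of 7.67 marked members per library had an exact permutation p of 0.25, the smallest that 3 pairs allow. No fit with or without the block could pass 0.05, so the block tests no call here. Median WT summits of 5 fragments limit what a missing peak in WT shows: such a gene was not detected at this depth.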

Other observations

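The kinases that phosphorylate SR proteins, with their import receptor Tnpo3, were marked at 7 of 9 genes in each KO library and at 7, 6 and 5 in WT (exact permutation p = 0.4). Clk1, which feeds back on its own splicing, overlapped between genotypes, with 1331, 1198 and 1159 bp covered in KO and 1169, 1046 and 1056 bp in WT, although its lowest KO value lay just below its highest WT value. Dyrk1a had 1532, 1495 and 2001 bp in KO, against 393, 400 and 312 bp in WT, without overlap. Clk2 had 1847, 1572 and 2431 bp in KO and 1103, 0 and 400 bp in WT. Tnpo3 had 1390, 1206 and 1117 bp in KO and 200, 927 and 599 bp in WT. Srpk1 had 997, 343 and 823 bp in KO and 214, 207 and 0 bp in WT. Srpk2 and Srpk3 had no peak at their ends in any library. Every KO library covered more than any WT library at 6 of the 9 genes, against 25.6% of all genes, and at 85.7% of the marked ones, against 50.6% of all marked genes.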
